A study of Mus musculus with 18 samples.

Results

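Ribosome-bound RNA was compared with total RNA in astrocyte cultures that had been exposed to ethanol. The libraries were chosen by their labels, as the 3 ethanol dishes (dishes 16, 17 and 18, replicates 4, 5 and 6) of which both an IP and an input library were sequenced, which gave 6 of the 18 libraries of the series. In the study, TRAP (translating ribosome affinity purification) was run on 6 control and 6 ethanol dishes, and input RNA was sequenced from 3 dishes of each treatment. The cells came from the cortices of newborn mice with the transgene Tg(Aldh1l1-EGFP/Rpl10a)JD130Htz on a mixed B6 and FVB background, with equal numbers of males and females pooled. They were grown with serum and replated once before a change to medium without it. Each ethanol dish then stood for 24 h in a sealed chamber in medium with 50 mM ethanol, and each control dish (0 mM) in the same medium without ethanol. All dishes, controls included, carry the transgene, which expresses EGFP fused to the ribosomal protein RPL10A under the *Aldh1l1* promoter. The input libraries hold RNA of the cleared lysate, from which insoluble debris had been spun out, and the IP libraries hold RNA pulled down from the same lysate with antibodies against GFP. Nothing in the labels says that the dishes were separate cultures, so p-values measure the spread between dishes, which may be technical.

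In TRAP, mRNAs come down with the tagged ribosomes that sit on them. A transcript is enriched over input when it lies in cells that make the tagged protein and carries many ribosomes, and it is depleted when it lies in other cells, in the nucleus or in mitochondria, or when few ribosomes are bound to it. A ratio of IP to input holds these contributions together, and in these bulk libraries fewer cells of a type and less RNA per cell cannot be told apart either. The ratio is also relative, since each library is scaled to its own total.

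The 6 libraries held 74706940 to 132810705 read pairs assigned to genes, and the deepest was the IP library of replicate 4. Levels are given as CPM, the counted pairs of a gene per 1000000 pairs of the TMM-scaled total of its library, in the order of replicates 4, 5 and 6. Log2 fold changes (IP vs. input, mean of the 3 dishes) are given with their SE from edgeR's quasi-likelihood test with the dish as a block, and a gene was called at a Benjamini-Hochberg adjusted p under 0.05 over the 24495 genes tested. Positions of genes come from GENCODE M21 (GRCm38). The 20 astrocyte markers summed to 2657 to 2683 CPM in input and 4150.4 to 4228 CPM in IP, and only *Gjb6* and *Ntsr2* of them averaged under 1 CPM. The 20 microglia markers summed to 305 to 350.5 CPM in input and 74.1 to 83.8 CPM in IP. The input libraries held RNA of both, and 9 of 21 neuronal, 10 of 18 oligodendrocyte, 8 of 19 endothelial and mural, 7 of 15 fibroblast and 9 of 17 ependymal markers averaged under 1 CPM.

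IP and input differed in a large part of the transcriptome. Of the 24495 genes, 10054 were called (41%), 5168 higher in IP (21.1%) and 4886 lower in IP (19.9%). Most of these differences were small, with a median of 1.24-fold, and 4026 genes (16.4%) passed a test against a fold of 1.2. The split by direction depended on the scaling, with 4327 genes higher and 5685 lower when library totals were used in place of TMM. Large differences lay on the side of depletion. Over 2-fold, 1128 genes were lower and 75 higher in IP, and over 4-fold 379 were lower and 17 higher. The 3 IP libraries did not overlap the 3 input libraries in 11529 genes (47.1%). The log2 ratios of the single dishes correlated across the 11102 genes that averaged 5 CPM or more, with a Pearson's r of 0.954 to 0.966 between dishes (across genes, which are not independent replicates).

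**Figure D1:**
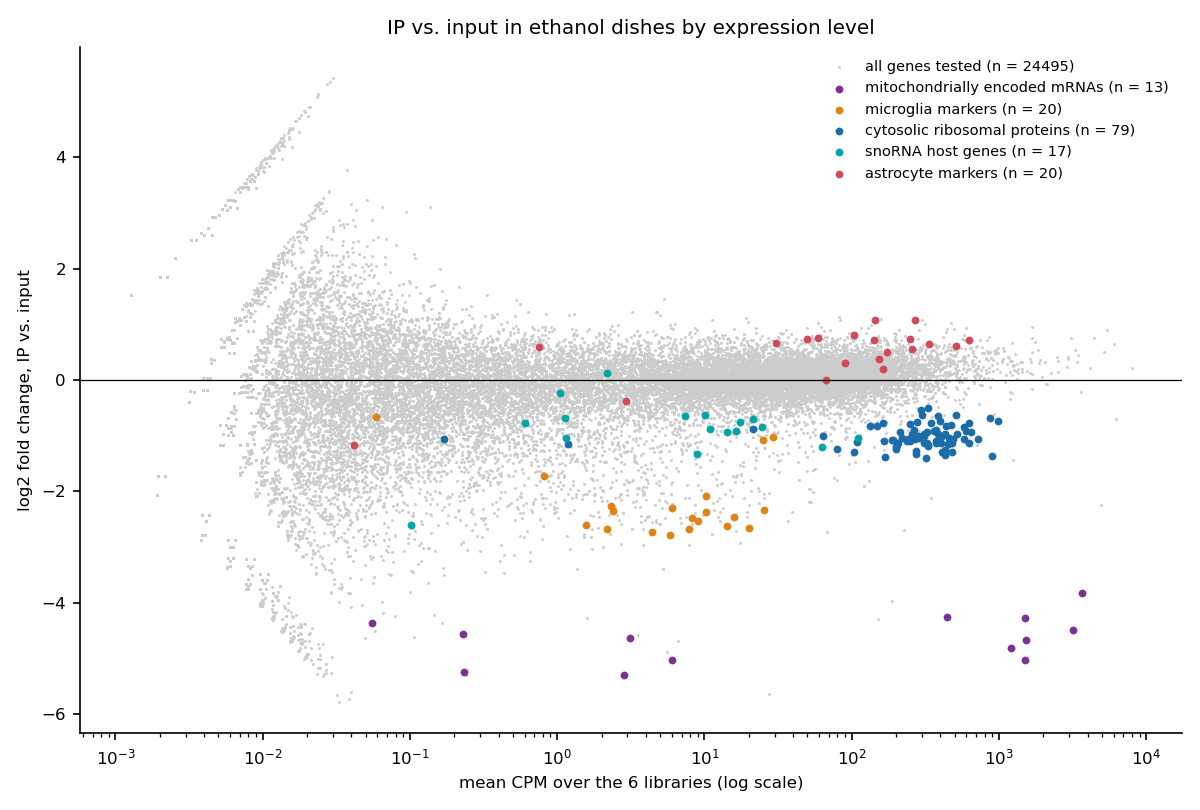
Log2 fold change of IP vs. input in the ethanol dishes (y axis) against mean CPM over the 6 libraries (x axis, log scale), with one point per gene and 5 gene lists in colour. The mitochondrial mRNAs lie between -5.29 and -3.83, the cytosolic ribosomal proteins form a compact group around -1.05, and most astrocyte markers lie above 0; the wide spread at the left is that of genes with few reads.

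The gene whose promoter drives the tag was among the most enriched. *Aldh1l1* (chr6:90486427-90600203), which encodes a folate enzyme of astrocytes, measured 166.2, 179 and 176 CPM in input and 359, 363 and 374 CPM in IP. All 3 IP values lay above all 3 input values, and the log2 fold change was 1.07 ± 0.03 (SE, 2.10-fold). *Rpl10a* (chr17:28328471-28331033), the gene of the tagged protein, measured 349, 358 and 336 CPM in input and 237, 233 and 251 CPM in IP, with a log2 fold change of -0.53 ± 0.03. Reads of the transgene's own *Rpl10a* sequence may be part of that count. Among the astrocyte markers 17 of 20 were higher in IP and 1 was lower, with a median of 0.62 against -0.01 over all genes tested. *Acsbg1*, an acyl-CoA synthetase, was the highest of them at 1.08 ± 0.03, and its libraries measured 88.3, 92.5 and 94.9 CPM in input and 189.5, 193 and 199 CPM in IP. *Mlc1*, a membrane protein of astrocyte endfeet and the marker with the largest count, reached 805, 758 and 776 CPM in IP from 484, 468 and 474 CPM in input (0.71 ± 0.02). The intermediate filament gene *Gfap* (0.74) and the glutamate transporter genes *Slc1a2* (0.82) and *Slc1a3* (0.64) were higher as well. *S100b*, at a mean of 2.93 CPM, was lower in IP (-0.37), and *Fgfr3* and *Gjb6* were not called.

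**Figure D2:**
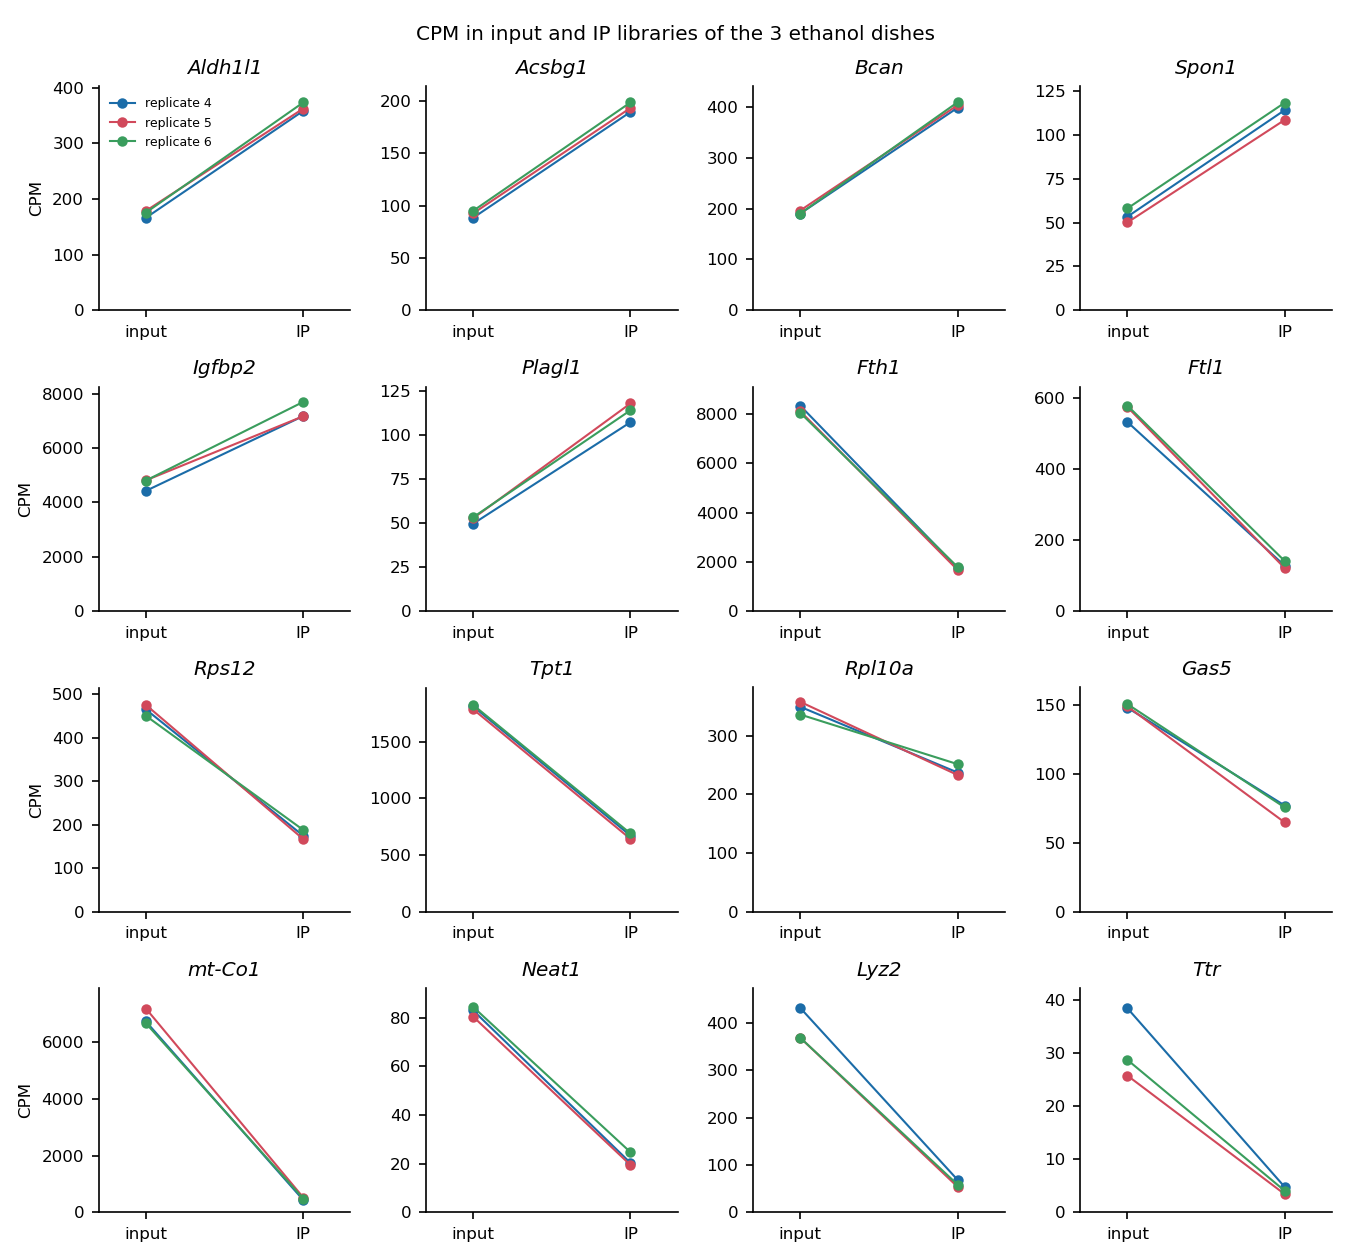
CPM (y axis, from 0, a scale for each gene) in the input and IP library of each ethanol dish, with a line and a colour for each of the replicates 4, 5 and 6. In each of the 16 genes the 3 lines run the same way and no IP value overlaps an input value; *Aldh1l1*, *Acsbg1*, *Bcan*, *Spon1*, *Igfbp2* and *Plagl1* go up, and the other 10 genes go down.

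The 10 largest increases among nuclear protein-coding genes with at least 5 CPM were *Plagl1*, *Cspg4*, *Nfasc*, *Spon1*, *Acsbg1*, *Aldh1l1*, *Grik3*, *Bcan*, *Gria1* and *Slc38a3*, and all lay between 1.02 and 1.13. *Plagl1*, an imprinted zinc finger transcription factor, measured 49.6, 52.7 and 53.3 CPM in input and 107, 118 and 114 CPM in IP (1.13 ± 0.03). *Nfasc*, the cell adhesion protein neurofascin, measured 99.7, 99.5 and 102 CPM in input and 215, 211 and 218 CPM in IP (1.10 ± 0.03). These increases were close to that of *Aldh1l1*, and the rule that chose them asked for IP and input libraries that do not overlap. *Gria1* (1.03 ± 0.05) and *Grik3* (1.07 ± 0.06) encode glutamate receptor subunits, and *Slc38a3* (1.02 ± 0.03) encodes a glutamine transporter. *Cspg4* (1.12 ± 0.05), the NG2 proteoglycan, is a marker of oligodendrocyte precursors and pericytes. With *Olig1* (0.71 ± 0.03) and *Olig2* (0.56) it was among the 5 of 18 oligodendrocyte lineage markers that were higher in IP, while 4 were lower, the myelin gene *Mbp* (-1.37) among them. Over all genes tested 21.1% were higher and 19.9% lower.

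Of the 10882 nuclear protein-coding genes with at least 5 CPM, 41.9% were higher and 29.1% lower in IP. Of 74 genes of the extracellular matrix and other secreted proteins, 42 were higher (56.8%) and 24 lower (32.4%), with a median of 0.23. *Bcan*, brevican, a chondroitin sulfate proteoglycan of the brain, measured 190.4, 196 and 190.3 CPM in input and 399, 404 and 409.8 CPM in IP (1.07 ± 0.03), and *Ncan*, neurocan, measured 78.6, 82.0 and 76.4 CPM in input and 150.7, 154.5 and 146.1 CPM in IP (0.93 ± 0.03). *Spon1*, the secreted protein spondin, was the highest of the list among genes with at least 5 CPM (1.08 ± 0.03), and *Igfbp2*, an IGF-binding protein with the largest count of the list, measured 4419.7, 4808 and 4800.0 CPM in input and 7176, 7168 and 7696 CPM in IP (0.65 ± 0.02). The list split by member. The apolipoprotein gene *Apoe* (0.76), clusterin *Clu* (0.75) and *Igfbp5* (0.93) were higher in IP, while *Dcn*, decorin, was the lowest at -1.97 ± 0.06, and *Col3a1* (-1.89), *Col1a1* (-1.51), *Mmp2* (-1.29) and *Vcan* (-1.20) were lower too. *Dcn*, *Col3a1* and *Col1a1* are also fibroblast and meningeal markers, a list that summed to 378 to 386 CPM in input and 247 to 256 CPM in IP, and the part of such cells in these values was not tested. Of 67 receptors for axon guidance and adhesion 43 were higher (64.2%) and 11 lower (16.4%, median 0.20). *Nlgn3*, a neuroligin, stood highest and measured 4.77, 4.03 and 3.81 CPM in input and 9.19, 8.42 and 7.57 CPM in IP, *Epha3*, an ephrin receptor, lowest (-1.72 ± 0.09), and *Itgb1*, the integrin with the largest count, was slightly higher in IP (0.13 ± 0.02).

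The genes of both chains of type I collagen went opposite ways. *Col1a1* measured 145.6, 142 and 141 CPM in input and 49.3, 50.8 and 51.0 CPM in IP, whereas *Col1a2* was higher in IP (0.34 ± 0.04). Over the collagen family 19 of 44 genes were higher and 12 lower, from *Col1a1* (-1.51) to *Col23a1* (0.76) among those with at least 5 CPM. These counts lie near the shares of nuclear protein-coding genes with at least 5 CPM, 41.9% higher and 29.1% lower. The basement membrane collagen *Col4a1* measured 711, 702 and 740.5 CPM in input and 1012, 988 and 1018 CPM in IP (0.49 ± 0.02).

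Microglial transcripts were depleted. Of 20 markers, 19 were lower in IP and *P2ry12*, at under 1 CPM, was not called, and the median was -2.42, 18.6% of input. The 10 largest decreases among nuclear protein-coding genes with at least 5 CPM and no overlap lay between -2.97 and -2.63, and 9 of them are genes of macrophages or microglia or of their chemokines and lysosomes (*Fpr1*, *Itgam*, *Wfdc17*, *Adgre1*, *Ccl9*, *Lyz2*, *C1qc*, *Laptm5* and *Ctss*). *Lyz2*, lysozyme, measured 431, 368 and 368 CPM in input and 68.6, 54.0 and 58.6 CPM in IP (-2.69 ± 0.03). *Fpr1*, a formyl peptide receptor, was the lowest and measured 14.3, 13.1 and 14.3 CPM in input and 1.89, 1.39 and 2.05 CPM in IP (-2.97 ± 0.09). The tenth gene, *Ttr*, encodes transthyretin, which in the brain is made by the choroid plexus, and it measured 38.5, 25.8 and 28.7 CPM in input and 4.77, 3.42 and 4.06 CPM in IP (-2.93 ± 0.06). The input level of *Lyz2* and *Ttr* was highest in replicate 4. Not every microglial gene was depleted alike, since *Cd68* (-1.02 ± 0.04) and *Cd14* (-1.07) lay well above the median of the list. Among 15 fibroblast and meningeal markers 8 were lower and 4 higher (median -0.89), and among neuronal markers 9 of 21 were higher, such as *Map2* (0.53 ± 0.03) and *Stmn2* (0.24 ± 0.03), and 3 were lower, such as *Gap43* (-1.36 ± 0.06). Of the endothelial and mural markers 4 of 19 were higher (*Acta2*, smooth muscle actin, 0.46 ± 0.02) and 6 lower (*Pdgfrb* -0.53 ± 0.03), and of the ependymal markers 3 of 17 were higher (*Foxj1*, a regulator of motile cilia, 0.30 ± 0.02) and none was lower. Over all genes tested 21.1% were higher and 19.9% lower, so the endothelial and ependymal counts of higher genes lie near the general share.

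The mRNAs of the mitochondrial genome, which are translated inside mitochondria on ribosomes without the tag, were depleted more than any other list of mRNAs. All 13 were lower in IP, with a median of -4.64, 4.00% of input. They took 2.52% to 2.58% of the counted pairs in input and 0.111% to 0.135% in IP. *mt-Co1*, a cytochrome c oxidase subunit, measured 6742, 7200.1 and 6679 CPM in input and 437, 525 and 488 CPM in IP (-3.83 ± 0.02), and *mt-Cytb*, cytochrome b, measured 6139.6, 6083 and 5989 CPM in input and 248, 296 and 263 CPM in IP (-4.50 ± 0.03). The 3 lowest by level, *mt-Atp8*, *mt-Nd3* and *mt-Nd4l*, averaged under 1 CPM. *mt-Co2*, *mt-Co3* and *mt-Atp6* had only 6.05, 3.10 and 2.85 CPM on average. Read pairs with several places in the genome were not counted, and copies of mitochondrial sequence lie on chromosome 1, where the unprocessed pseudogenes *Gm10925* (-4.89), *Gm28661* (-4.69) and *Gm29216* (-3.40) were the 3 lowest nuclear genes outside the protein-coding class with at least 5 CPM, so the values of these genes are uncertain. *mt-Rnr1*, the small mitochondrial rRNA, had a log2 fold change of -4.30 ± 0.03. The nuclear genes for the same organelle did not follow. Of 76 nuclear-encoded respiratory chain subunits 14 were higher and 35 lower with a median of -0.06, and of 77 mitochondrial ribosomal proteins 13 were higher and 32 lower with a median of -0.08. The shares over nuclear protein-coding genes with at least 5 CPM were 41.9% higher and 29.1% lower.

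**Figure D3:**
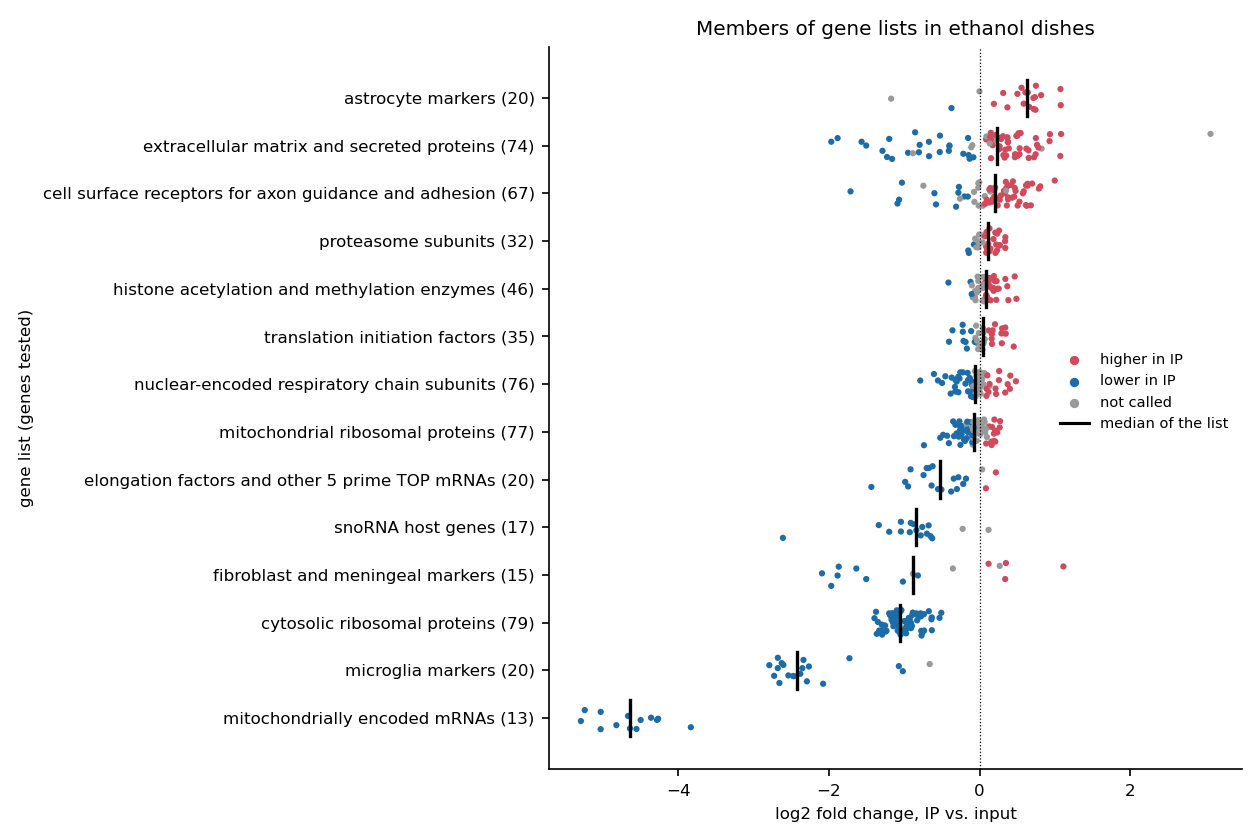
Log2 fold change of IP vs. input in the ethanol dishes (x axis) for each tested member of 14 gene lists (y axis, number of genes tested in parentheses), coloured by call, with the median of each list as a black bar. The medians run from -4.64 for mitochondrial mRNAs to 0.62 for astrocyte markers.

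The mRNAs of cytosolic ribosomal proteins were depleted together. Of 79 genes of cytosolic ribosomal proteins, 78 were lower in IP, none was higher and *Rpl24*, at under 1 CPM, was not called. Their median was -1.05, 48.1% of input, and they summed to 36520.5 to 37171 CPM in input and 17350.3 to 19338 CPM in IP. The range was narrow, from *Rps12* (-1.40 ± 0.03), which measured 465, 475 and 450.2 CPM in input and 174, 166.7 and 188 CPM in IP, to *Rpl22* (-0.51 ± 0.02), which measured 382, 384 and 386 CPM in input and 269.7, 262 and 278 CPM in IP. *Rpl4*, with the largest mean count of the list, measured 1268, 1222 and 1225 CPM in input and 745, 714 and 770.0 CPM in IP (-0.74 ± 0.02). Their mRNAs are known for a start of pyrimidines, the 5′ TOP motif, through which growth signals control their loading on ribosomes, and elongation factors share it. Of 20 elongation factors and other TOP mRNAs 17 were lower and 2 higher (median -0.53). *Tpt1*, the translationally controlled tumour protein, was the lowest and measured 1814, 1789 and 1827 CPM in input and 672, 643 and 691 CPM in IP (-1.44 ± 0.02), *Eef1a1*, the elongation factor that carries tRNA, fell to 61.4% of input, and *Vim*, vimentin, was higher in IP (0.22 ± 0.02). The TOP list holds 6 initiation factors, of which *Eif3f* (-0.92), *Eif3e* (-0.75), *Eif3h* (-0.62), *Eif3k* (-0.55) and *Eif3l* (-0.18) were lower in IP and *Eif4b* was not called. Of the 35 initiation factors outside it, 12 were higher and 9 lower (median 0.04, and -0.01 with library totals in place of TMM), from *Eif3m* (-0.41 ± 0.03) to *Eif4g1* (0.45 ± 0.02). Among nuclear protein-coding genes with at least 5 CPM, 41.9% were higher and 29.1% lower.

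Windows of 30 bases around the annotated RefSeq starts (GRCm38.p6), 15 on each side, are shown for a ribosomal protein gene that has the motif at its annotated start, for the lowest of the ribosomal proteins, for a pair of snoRNA host genes with the motif and for *Bcan*. Capitals mark a C at the start followed without a break by at least 4 pyrimidines (C or T, read on the gene's strand only).
Rps6 (chr4:86857353-86857382, minus strand): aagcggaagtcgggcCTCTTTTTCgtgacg
Rps12 (chr10:23787195-23787224, minus strand): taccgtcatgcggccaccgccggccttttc
Gas5 (chr1:161035151-161035180, plus strand): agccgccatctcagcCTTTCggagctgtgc
Snhg8 (chr3:123508322-123508351, minus strand): gcaccgttcagaagtCTCTTTggctgcgat
Bcan (chr3:88000342-88000371, minus strand): tgtcctccctctgcccgctgtcgcccggaa
A start of this kind was found in 14 of 58 ribosomal protein genes with a window (24.1%) and in 813 of 27025 genes in all (3.01%). The ribosomal protein genes were depleted alike with and without it, with medians of -1.07 (14 genes) and -1.05 (43 genes). Among other protein-coding genes with at least 5 CPM the medians were 0.02 (250 genes with it) and 0.05 (8250 genes without). The lack of a match says only that the annotated start does not begin with these letters.

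Host genes of snoRNAs, spliced transcripts with no long reading frame of which several are also TOP RNAs, were depleted as well. Of 17, 15 were lower and 0 higher (median -0.84), against 19.9% lower and 21.1% higher over all genes tested. *Gas5* measured 147.9, 148.8 and 150.5 CPM in input and 76.9, 64.7 and 75.5 CPM in IP (-1.04 ± 0.03), *Snhg8* was the lowest with at least 5 CPM (-1.34 ± 0.07), and *Snhg15* the highest (-0.63 ± 0.07). Some long noncoding RNAs that stay in the nucleus were lower still. *Neat1*, the scaffold of paraspeckles, measured 83.0, 80.5 and 84.5 CPM in input and 20.3, 19.5 and 24.7 CPM in IP (-1.95 ± 0.04), and *Malat1*, an RNA of nuclear speckles, fell to 38.5% of input. *Tug1*, with the largest mean count in the list of nuclear and long noncoding RNAs, was only slightly lower (-0.09 ± 0.03), and its libraries overlapped. Of the 22 noncoding RNAs of this list 13 were lower and 3 higher (median -0.33), beside the same shares over all genes tested. One of those higher was *Xist*, the RNA that coats the inactive X chromosome, which measured 3.04, 2.27 and 3.02 CPM in input and 6.50, 6.21 and 10.8 CPM in IP (1.46 ± 0.09). It was the largest increase among all genes outside the protein-coding class with at least 5 CPM, the IP value of replicate 6 was the highest of the 6, and control dishes measured 0.970, 1.81 and 1.80 CPM in input and 1.74, 4.55 and 5.602 CPM in IP, where the libraries overlap. The IP libraries of the other ethanol dishes ranged from 1.24 to 9.29 CPM, the lowest of them below every ethanol input library. Counts on the annotated strand alone, which leave out its antisense partner *Tsix*, gave 1.45 in ethanol dishes. The next were *6330403K07Rik* (0.84 ± 0.05), *AU020206* (0.81), *B930095G15Rik* (0.75) and *Gm16576* (0.74). By annotation class the medians were 0.02 over 17056 protein-coding genes, -0.17 over 1601 lincRNAs, -0.28 over 1256 antisense RNAs and -0.17 over 2131 processed pseudogenes. Most of the noncoding genes were scarce. With at least 5 CPM the medians were 0.05 over 10897 protein-coding genes and -0.01 over 59 lincRNAs. They were -0.12 over 24 antisense RNAs and -0.42 over 19 processed pseudogenes. Pseudogenes share sequence with their parent genes and antisense RNAs were counted without regard to strand, so the values of these classes are uncertain.

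The mRNAs of ferritin, which stores iron, were depleted further than any ribosomal protein mRNA. *Fth1* (chr19:9980598-9985098), the ferritin heavy chain, measured 8351, 8126 and 8059.7 CPM in input and 1744, 1667 and 1787 CPM in IP (-2.24 ± 0.02), a level 4.72 times lower in IP, and *Ftl1* (chr7:45457944-45459884), the light chain, measured 533, 575 and 579 CPM in input and 127, 120.5 and 140.4 CPM in IP (-2.12 ± 0.03). Ferritin mRNAs are known for a hairpin in the 5′ UTR, the iron-responsive element (IRE), to which iron regulatory proteins bind when iron is scarce and hold back initiation. The iron exporter *Slc40a1* has one too and measured 1.78, 1.62 and 1.55 CPM in input and 0.813, 0.551 and 0.593 CPM in IP (-1.33 ± 0.18). *Ftl1* and *Slc40a1* were chosen after their values were seen. The stem and loop of these 3 genes, found in the 5′ UTRs of GENCODE M21 (GRCm38) on the transcribed strand, are shown with the loop in capitals.
Fth1 (chr19:9982732-9982760, plus strand): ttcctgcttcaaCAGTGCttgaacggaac
Ftl1 (chr7:45459779-45459807, minus strand): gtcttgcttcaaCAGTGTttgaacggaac
Slc40a1 (chr1:45925465-45925493, minus strand): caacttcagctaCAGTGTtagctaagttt
The pattern searched for was the C bulge, 5 bases, the loop CAGTGN and 5 bases that pair with the first 5, and 31 of 20580 genes (0.151%) with an annotated 5′ UTR of at least 17 bases held it. Of the 29 that were tested, with the matches of a single chromosome left out, 9 were higher and 9 lower in IP. Among the 19 of these with at least 5 CPM, 9 were higher and 5 lower. These counts lie near the shares of nuclear protein-coding genes with at least 5 CPM, 41.9% higher and 29.1% lower. Over all genes tested 21.1% were higher and 19.9% lower. Genes with an IRE in the 3′ UTR, *Tfrc* (0.22) and *Slc11a2* (-0.03), and the iron regulatory proteins *Aco1* (0.30) and *Ireb2* (-0.03) were higher in IP or not called.

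Short-lived mRNAs went both ways. For the counts that follow, the shares over nuclear protein-coding genes with at least 5 CPM were 41.9% higher and 29.1% lower in IP. Of 29 immediate early genes 8 were higher and 12 lower. *Klf4* measured 60.7, 59.0 and 57.2 CPM in input and 27.8, 27.4 and 27.0 CPM in IP (-1.11 ± 0.04) and *Egr1* fell to 47.2% of input, whereas *Jun* measured 120.3, 123 and 114 CPM in input and 164.2, 171 and 164.4 CPM in IP (0.48 ± 0.03). The targets of the integrated stress response were also split, with 17 of 30 higher and 9 lower. The transcription factor *Ddit3* was the lowest (-0.59 ± 0.03), the alanyl-tRNA synthetase *Aars* the highest (0.51 ± 0.03), and *Atf4*, whose translation depends on upstream reading frames, lay at -0.09. Enzymes of alcohol and aldehyde oxidation were mostly higher, 9 of 13, with 3 lower. *Aldh1a1* measured 457, 504 and 524 CPM in input and 611, 671 and 721 CPM in IP (0.43 ± 0.02), mitochondrial *Aldh2* lay at 0.20, and *Aldh1a3* measured 33.0, 36.0 and 29.6 CPM in input and 12.2, 13.0 and 11.1 CPM in IP (-1.44 ± 0.05). Proteasome subunits were slightly higher (21 of 32 higher, 3 lower, median 0.11), from *Psmb1* (-0.15) to *Psmd4* (0.34), and so were enzymes of histone acetylation and methylation (25 of 46 higher, 3 lower, median 0.09). Among kinesins, motor proteins of microtubules, 25 of 37 were higher and none was lower, and *Kif1a* measured 434, 442 and 439 CPM in input and 717, 728 and 727 CPM in IP (0.72 ± 0.02). *Chd3*, a chromatin remodeller, was higher in IP (0.30 ± 0.03).

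Enrichment went with the length of the protein. The 10882 nuclear protein-coding genes with at least 5 CPM and an annotated protein were split by the length of their longest protein into 5 bins of about equal number. The median log2 fold change was -0.11 for proteins of 37 to 260 amino acids, 0.01 for 261 to 406, 0.07 for 407 to 568, 0.11 for 569 to 871 and 0.16 for 873 to 8799. In the shortest bin 52.7% of genes were lower and 18.3% higher in IP, and in the longest 14.9% were lower and 60.9% higher. Without the ribosomal proteins the median of the shortest bin was -0.10. These are medians over genes, given with no test.

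**Figure D4:**
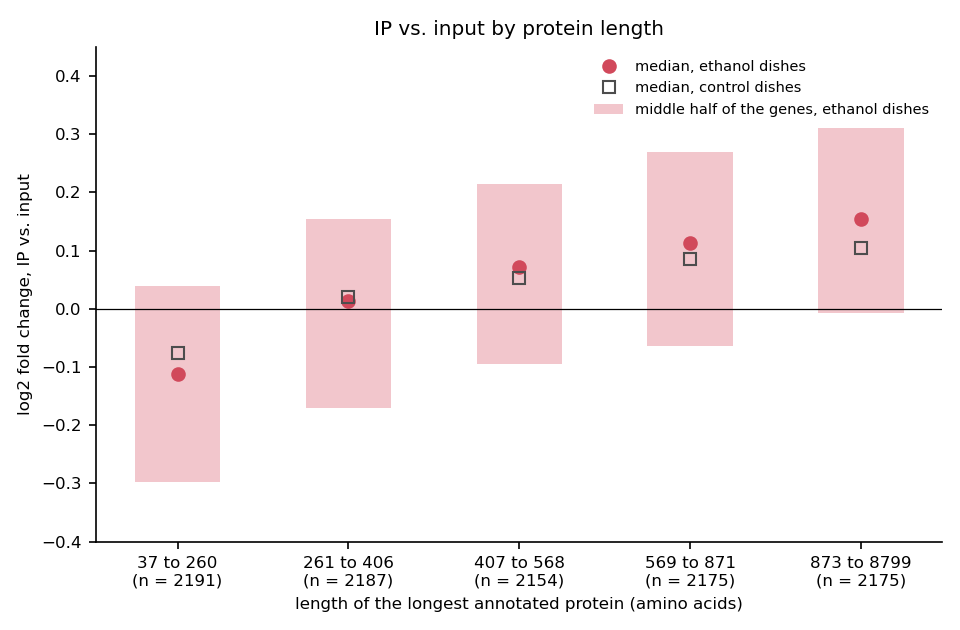
Log2 fold change of IP vs. input (y axis) for 5 bins of protein length in amino acids (x axis, number of genes in parentheses), with the median and the range between the 25th and 75th percentiles of the ethanol dishes and the median of the control dishes. The ethanol medians go from -0.11 to 0.16 and the control medians from -0.08 to 0.10.

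The 3 IP libraries of the other ethanol dishes (replicates 1 to 3), which have no input library and were not in the fit, allowed a look at other dishes. Of 9478 called genes whose IP and input libraries did not overlap, 8549 (90.2%) had these 3 libraries on the same side of all 3 input libraries. The same input libraries had served to choose the genes, so this share is not independent of the fit. The mitochondrial mRNAs summed to 1188 to 1393 CPM in them, and the microglia markers to 78.8 to 85.3 CPM.

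The same contrast in the 3 control dishes with input showed where the ethanol dishes differ. In control dishes 9814 genes were called (40.1%), 4912 higher in IP (20.1%) and 4902 lower in IP (20%). Of the genes called in ethanol dishes 84.4% were also called in control dishes, and of those called in control dishes 86.4% were called in ethanol dishes. In both, 8478 went the same way and 5 the opposite way. Across genes with at least 5 CPM the log2 fold changes of both treatments, which come from different dishes, had a Pearson's r of 0.982 and a Spearman's rho of 0.958 (across genes). The medians of several lists lay close, at -1.05 in ethanol and -1.01 in control dishes for ribosomal proteins, -2.42 and -2.46 for microglia markers and 0.62 and 0.61 for astrocyte markers. Others lay apart, at -4.64 in ethanol and -4.30 in control dishes for mitochondrial mRNAs and -0.33 and -0.61 for nuclear and long noncoding RNAs. The same holds for lists that rest on scarce or few genes, at 0.19 and -0.70 for oligodendrocyte lineage markers and -1.71 and -2.71 for 5 small noncoding RNAs. These medians are given with no test. Taken gene by gene, the difference between treatments had a median of 0.001 for nuclear and long noncoding RNAs and 0.04 for oligodendrocyte lineage markers. It was -0.19 for mitochondrial mRNAs and -0.33 for the small noncoding RNAs, against 0.02 over all genes tested. No mitochondrial mRNA and none of these small noncoding RNAs was called in the test of the difference below. The list medians of mitochondrial mRNAs were those of different genes, *mt-Co3* (3.10 CPM on average) in ethanol dishes and *mt-Cytb* in control dishes. A gap between list medians is therefore not always a shift of the members.

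The difference itself was tested as an interaction in the 12 libraries of both treatments, again with the dish as a block. It was called in 102 genes (0.416%), of which 94 (0.384%) had a higher IP to input ratio in ethanol dishes and 8 (0.0327%) a lower one. The count depended on the settings. Without the dish as a block 13 genes were called, with all 18 libraries and no block none was (edgeR, with 1459 genes at an unadjusted p under 0.05), and 1 gene passed a test against a fold of 1.2. The direction of the calls depended on the scaling as well, with 94 higher and 8 lower after TMM over the 12 libraries, 45 and 19 after TMM over all 18 libraries, and 49 and 18 with library totals. Leaving out 1 dish gave 20 (control replicate 6) to 117 genes (control replicate 4), with 30 without control replicate 5, 37 without ethanol replicate 4 and 46 without ethanol replicate 6.

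**Figure D5:**
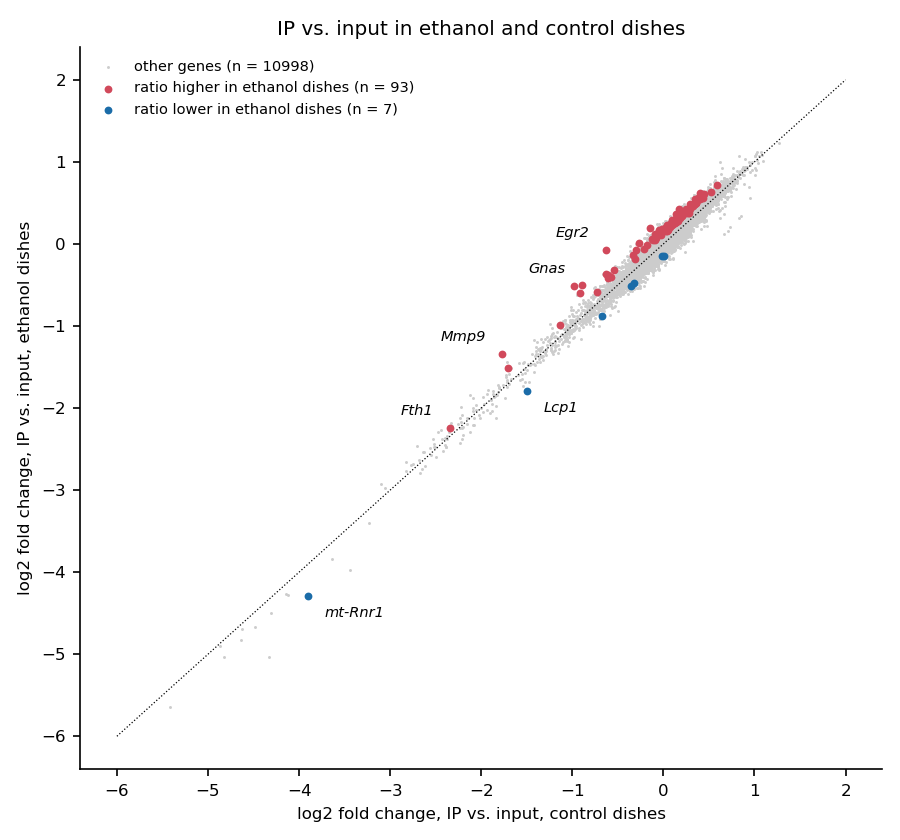
Log2 fold change of IP vs. input in ethanol dishes (y axis) against control dishes (x axis) for genes that averaged 5 CPM or more over the 12 libraries, with a dotted line of equality. The 93 genes with a higher ratio in ethanol dishes (red) and the 7 with a lower ratio (blue) lie close to the line, and most other genes (grey) lie on it.

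The difference was smaller than the contrast itself in *Fth1*, *Mmp9* and *Lcp1*, but not in every gene. The log2 fold change of *Egr2* was -0.07 in ethanol and -0.63 in control dishes, and that of *Meg3* was -0.37 and -1.68. *Fth1*, depleted in both treatments, measured 8027, 7947 and 7814 CPM in input and 1584, 1579.5 and 1563 CPM in IP in control dishes, and its ratio was less low in ethanol dishes by 0.11 ± 0.03 on the log2 scale (adjusted p = 0.014, edgeR). *Egr2*, an immediate early transcription factor, measured 5.77, 6.59 and 4.59 CPM in input and 3.56, 3.43 and 4.06 CPM in IP in control dishes and 6.24, 6.90 and 5.71 CPM in input and 5.20, 7.26 and 5.66 CPM in IP in ethanol dishes (0.56 ± 0.12, adjusted p = 0.004). The IP level was below input in the control dishes and overlapped it in the ethanol dishes. *Firre*, a nuclear noncoding RNA, measured 10.6, 12.3 and 11.5 CPM in input and 5.20, 6.41 and 5.97 CPM in IP in control dishes and 10.99, 11.2 and 10.1 CPM in input and 7.31, 7.45 and 8.05 CPM in IP in ethanol dishes (0.48 ± 0.10). *Mmp9*, a matrix metalloproteinase, measured 14.2, 13.7 and 15.5 CPM in input and 4.00, 4.07 and 4.83 CPM in IP in control dishes and 10.96, 8.54 and 10.8 CPM in input and 4.09, 3.47 and 4.45 CPM in IP in ethanol dishes (0.44 ± 0.11), so that here the input libraries held the difference and the IP libraries overlapped. *Meg3*, an imprinted noncoding RNA, was scarce, at 2.06, 1.73 and 1.22 CPM in ethanol input and 1.27, 1.07 and 1.59 CPM in ethanol IP, with 2.44, 2.37 and 2.84 CPM in input and 0.696, 1.06 and 0.648 CPM in IP in control dishes (1.32 ± 0.22, adjusted p = 2e-05). *Gnas*, which overlaps antisense transcripts, differed by 0.40 ± 0.06 in the counts without strand, and by 0.07 with an adjusted p of 0.43 in counts on the annotated strand, where the call was lost. In IP libraries of the other ethanol dishes, *Firre* ranged from 4.05 to 7.23 CPM and *Meg3* from 0.492 to 1.86 CPM. Both ranges run from below to above the control IP values. So did *Gnas*, at 21.72 to 31.16 CPM against 24.82 to 26.95 CPM in control IP. *Egr2* ranged there from 4.10 to 4.80 CPM, above control IP but below the ethanol IP values given here. *Fth1*, at 1689.6 to 1756.3 CPM, lay above control IP. Those dishes have no input library, so their ratios were not tested.

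Other large positive differences were in *Atn1* (0.35 ± 0.08), *Zfhx2* (0.32 ± 0.08), *Tet3* (0.29 ± 0.07), *Zfp503* (0.27 ± 0.06) and *Usp36* (0.26 ± 0.07). These calls depended on the settings. Of 16 alternatives, *Zfp503* was called in 8, *Atn1* in 7, and *Zfhx2*, *Tet3* and *Usp36* in 4 each. *Tet3*, an enzyme that oxidises methylated cytosine, measured 20.5, 19.6 and 18.3 CPM in input and 18.9, 21.4 and 18.7 CPM in IP in ethanol dishes, where the libraries overlap, and 21.4, 19.2 and 22.1 CPM in input and 16.8, 16.9 and 18.9 CPM in IP in control dishes. Among the negative differences *Lcp1*, the leukocyte actin-bundling protein plastin, measured 74.1, 60.8 and 68.2 CPM in input and 20.8, 18.0 and 19.6 CPM in IP in ethanol dishes and 66.9, 64.9 and 61.3 CPM in input and 24.0, 22.6 and 22.5 CPM in IP in control dishes (-0.29 ± 0.05, adjusted p = 0.00013), and *mt-Rnr1* measured 13.3, 15.0 and 15.9 CPM in ethanol IP and 18.2, 16.5 and 17.5 CPM in control IP (-0.38 ± 0.05, adjusted p = 4.9e-13). The microglia markers summed to 304 to 311 CPM in input and 69.2 to 75.1 CPM in IP of control dishes, next to 305 to 350.5 and 74.1 to 83.8 CPM in ethanol dishes, and their part in the value of *Lcp1* was not tested. The remaining negative ones with at least 5 CPM were *Smim10l1* (-0.19 ± 0.05), *Hspe1*, a mitochondrial chaperonin (-0.16 ± 0.04), *Selenok* (-0.15 ± 0.04), the splicing factor *Srsf5* (-0.14 ± 0.04) and *Cttn*, cortactin (-0.12 ± 0.03). Of 16 alternatives, they were called in 9 (*Smim10l1*), 8 (*Selenok*), 7 (*Srsf5* and *Cttn*) and 6 (*Hspe1*). *Bcan* (0.03 ± 0.03) and *Ncan* (0.02 ± 0.04) were not called, and *Chd3* (0.19 ± 0.04, adjusted p = 0.0019) and *Ndst1*, a heparan sulfate sulfotransferase (0.15 ± 0.03, adjusted p = 0.0041), were.

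The called genes were long, as the enriched genes were. The 92 nuclear protein-coding genes with a higher ratio in ethanol dishes had a median protein length of 1340 amino acids and the 7 with a lower ratio 270.0, against 480.0 over the 10882 genes with at least 5 CPM. By the bins above, 70 of the higher ones lay in the longest bin and 3 in the shortest. Over all genes of those bins the median difference between treatments went from -0.02 in the shortest to 0.06 in the longest. The part of length in these differences was not tested.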

How the data were processed

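The authors removed adapters with Trimmomatic, used STAR for alignment to GRCm38 and deposited raw counts of read pairs per gene, unstranded, without normalization and with no libraries pooled. Pairs that map to several places (2.97% to 4.76% of pairs in the 6 libraries) or overlap several genes (5.37% to 5.59%) were set aside. Pairs on the strand opposite to the annotated one made up 4.22% to 4.41%. Genes were tested where the 18 libraries together held 10 or more pairs, and edgeR 4.0.16 (TMM over the libraries of each fit, estimateDisp, glmQLFit with robust estimation, glmQLFTest) was run in R 4.3.3 on the 6 libraries with dish as a block. The interaction used 12 libraries. CPM use TMM over 18 libraries. SE is the absolute log2 fold change divided by the square root of F. DESeq2 1.42.0 and the other alternatives are given with the dependence on processing. Input and IP of a dish are paired by the dish number in the labels, and their deviations from the group means correlated at 0.111 to 0.225 in ethanol dishes (0.0411 to 0.135 in control dishes), against -0.175 to -0.0498 between different ethanol dishes. No libraries were copies, since those of a group had a chi-square of 4.59 to 9.35 per degree of freedom, and for abundant genes the spread between dishes exceeds counting error. In a test on simulated counts of the 24495 genes, the changed genes were drawn only from genes that averaged 100 or more read pairs. Of 67 genes changed 1.2-fold, 88.1% were recovered in IP vs. input, and of 66 changed 2-fold, 100%. In the interaction 65.7% and 100% were recovered. The other 24295 genes were left unchanged, so the recovery of scarce genes was not tested.

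The libraries, gene lists and tests were chosen with earlier results of these data known. Genes named are *Aldh1l1* and *Rpl10a*, the 10 largest changes each way among called nuclear protein-coding genes (5 among other nuclear genes) that averaged 5 CPM or more without overlap, the mitochondrial mRNAs, the extreme and most abundant members of lists, the 10 largest differences each way between treatments, and *Bcan*, *Ncan*, *Chd3*, *Meg3* and *Ndst1*; other list members were chosen after their values were seen. Results of some genes and lists under this rule are not reported here. Start windows are from RefSeq, other annotation from GENCODE M21.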

Additional observations from a re-analysis of the deposited data

Results flagged for a closer look

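The number of genes with at least 1 read pair stood apart in 1 of the 6 IP libraries of ethanol dishes, replicate 4, with 23778 genes, and the gap to its neighbour was 0.724 of the range. This is also the deepest library, with 132810705 read pairs on genes. Chance alone flags about 1 in 20 such groups for a single measure. Several measures of these libraries were looked at, so a flag in any of them is more likely than that.

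The difference of IP vs. input between ethanol and control dishes was called in 102 genes. Of the genes named here, the ratio of IP to input was higher in ethanol dishes, on the log2 scale, in *Atn1* (0.35), *Chd3* (0.19), *Col1a1* (0.21), *Egr2* (0.56), *Firre* (0.48), *Fth1* (0.11), *Gnas* (0.40), *Kdm6b* (0.20), *Meg3* (1.32), *Mmp9* (0.44), *Ndst1* (0.15), *Tet3* (0.29), *Usp36* (0.26), *Zfhx2* (0.32) and *Zfp503* (0.27). It was lower in *Cttn* (-0.12), *Hspe1* (-0.16), *Lcp1* (-0.29), *Selenok* (-0.15), *Smim10l1* (-0.19), *Srsf5* (-0.14) and *mt-Rnr1* (-0.38). *Kdm6b* encodes a histone demethylase and *Col1a1* a chain of type I collagen. Over 16 alternatives the adjusted p of *Lcp1* ranged from 4.2e-05 to 0.791 and passed in 13, and that of *Fth1* from 0.00641 to 0.787 and passed in 5 (edgeR or DESeq2). The call also passed in 14 for *Meg3*, *Col1a1* and *mt-Rnr1*, 13 for *Firre*, and 12 for *Chd3*, *Gnas* and *Ndst1*. It passed in only 9 for *Egr2* and 5 each for *Mmp9* and *Kdm6b*.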

How the results depend on the processing

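IP vs. input in ethanol dishes called 9929 to 10169 genes under the other scalings, filters, libraries and strand, 9918 with the quasi-likelihood of version 4, 9981 without the replicate block, 8265 with DESeq2, and 8283 to 9201 with 1 dish left out, against 10054. The test against a fold of 1.2 called 4026. The difference between treatments was called in 102 genes, and in 79 with RLE, 67 with library totals, 64 with TMM over all 18 libraries, 63 with DESeq2, 33 with filterByExpr, 29 with version 4, 13 without the replicate block in 12 libraries, 0 without it in 18 libraries and 1 against a fold of 1.2, and it was 20 to 117 with 1 dish left out. TMM over 18 libraries and version 4 were chosen after seeing the data. Of the 102 genes, 50 to 101 were shared under the other scalings, DESeq2 and counts on the annotated strand. Beyond fewer samples or genes, the cause was not tested. Genes that were not called and changed sign were *Egr2* at -0.1493 to 0.0255 (1 dish left out), *Fgfr3* at 0.0043 (12 libraries with the replicate block), 0.0039 (no filter), -0.0515 to 0.0244 (1 dish left out), *Hist2h2be* at -0.0032 (filterByExpr), -0.0389 (library totals without TMM), -0.0009 (no replicate block), -0.0242 to 0.0464 (1 dish left out), *Srebf2* at -0.0056 (library totals without TMM) and *Tet3* at -0.0003 (filterByExpr), -0.0361 (library totals without TMM), -0.0477 to 0.0720 (1 dish left out) in IP vs. input, and *Bcan* at -0.0091 (no replicate block, 18 libraries) and *Ncan* at -0.0037 to 0.0388 (1 dish left out) in the difference. With library totals the medians of 7 lists near 0 were below 0. Of 2503 values of named genes in IP vs. input, 39 lost and 15 gained their call. Genes under 5 CPM are limited by depth.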
